A study of Mus musculus with 4 samples.

Results

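The genes of antigen presentation by major histocompatibility complex (MHC) class I and class II were followed across RNA-seq libraries of mouse hematopoietic stem cells (HSC) and common lymphoid progenitors (CLP). The 10 members were chosen by gene symbol: B2m, H2-K1, H2-D1, Tap1 and Tapbp for class I, and Cd74, H2-Aa, H2-Ab1, H2-Eb1 and Ciita for class II. The tables name 12742 gene symbols in all, and 9 of the 10 members had a row of their own in at least 1 library, while Ciita had none. The 4 libraries, 1 per population and genotype (WT HSC and GRK6-/- HSC, WT CLP and GRK6-/- CLP), came from bone marrow of C57BL/6 mice that were wild type or lacked the G protein-coupled receptor kinase GRK6. No agent was given, and by the study's methods the mice were adult littermates unless stated otherwise. HSC were gated as Lin- c-kit+ sca-1+ and CLP as Lin- c-kit+ sca-1+ Il-7Ra+, so both populations share the stem cell gate and differ in the IL-7 receptor. For each library the cDNA of 13 to 15 cells from 3 to 4 mice was pooled after every cell had been amplified by 20 and then 10 cycles of PCR, so no group had replicates. In such pools fewer cells of a type and less RNA per cell cannot be told apart.

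The depth and the labels were checked first, as far as the values allowed. The lowest values fall on steps that place the libraries at about 2.96e+06 (WT HSC) and 3.87e+06 fragments (GRK6-/- HSC), and 4.43e+06 (WT CLP) and 2.79e+06 fragments (GRK6-/- CLP). These are estimates, below the read number given in the study's methods, and every counting interval here rests on them and covers counting error only. Grk6 itself was higher in both libraries labelled knockout, with 42.7 FPKM in WT HSC against 89.4 in GRK6-/- HSC, and 26.9 in WT CLP against 57.6 in GRK6-/- CLP (FPKM, fragments scaled to transcript length and to the mapped fragments of the library). Its row spans the whole gene, including exons outside the deleted part, so it neither checks nor refutes the deletion. GRK6-/- therefore stands below for a library labelled so, and every genotype direction is a direction between labels. Il7r, the gate gene of CLP, had no row in WT HSC against 1.08 FPKM in GRK6-/- HSC, and 120 in WT CLP against 75.1 in GRK6-/- CLP. Kit, a gate gene of both populations, had 26.2 to 81.8 FPKM, and Ly6a (sca-1) was named only in a shared row of WT HSC. The 7 CLP markers summed to 118 to 168 FPKM in the HSC libraries and 1992 to 2756 in the CLP libraries. Rag1 and Rag2, the recombinase genes among them, had 23.03 and 94.5 FPKM in WT CLP against 2.47 FPKM and no row in GRK6-/- CLP. Of the other CLP markers, Ebf1 had 25.0 FPKM in WT CLP against 82.0 in GRK6-/- CLP. Il7r, Flt3, Dntt and Ly6d stayed within 2-fold between these libraries. The 8 HSC markers did not separate the populations, with sums of 256.5 and 419.1 FPKM in the HSC libraries and 277.1 and 452.4 in the CLP libraries. Elane, a neutrophil elastase of myeloid progenitors, stood at 3516 to 7008 FPKM in all 4. Erythroid genes set GRK6-/- CLP apart, since Hba-a2, an alpha globin, had 17220 FPKM there and 5.98 to 53.2 in the other libraries.

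Class I molecules are a polymorphic heavy chain, here H2-K1 or H2-D1, paired with beta-2 microglobulin (B2m). They display peptides from the cytosol, which the transporter subunit Tap1 carries into the endoplasmic reticulum and tapasin (Tapbp) helps to load, and nearly all nucleated cells carry them. Class II molecules are pairs of an alpha and a beta chain (H2-Aa with H2-Ab1) that are assembled on the invariant chain Cd74 and display peptides from endosomes, mainly on dendritic cells, B cells and macrophages. Ciita is the transactivator on which class II transcription depends. C57BL/6 mice carry a haplotype in which the alpha partner of H2-Eb1, H2-Ea, is not expressed, although H2-Eb1 can be transcribed.

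Most of these genes lie together. In the mm9 build, Tapbp (chr17:34052844-34066235, plus strand), H2-K1 (chr17:34132962-34137278, minus), Tap1 (chr17:34324498-34334170, plus), H2-Ab1 (chr17:34400154-34406363, plus), H2-Aa (chr17:34406276-34424772, minus), H2-Eb1 (chr17:34442828-34453144, plus) and H2-D1 (chr17:35399675-35404444, plus) are protein coding genes of chromosome 17. B2m lies at chr2:121973422-121978819 and Ciita at chr16:10480237-10527657. The annotated H2-Ab1 and H2-Aa genes run towards each other and share 88 bp at their ends, where reads cannot be told apart without strand.

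Promoters were compared because H2-Aa and H2-Eb1 shared one pattern across the libraries while H2-K1 had another. RefSeq sequences of 250 bases before to 50 after the start, in GRCm38.p6 and not in the build of the expression values, were matched for 7 of the 10 members. Cd74, H2-Ab1 and Ciita had no entry. Class II promoters are known for an X box bound by the RFX complex and a Y box bound by NF-Y, and class I promoters for an upstream site of NF-kB and interferon factors. Searched on both strands were CCAAT for the Y box, CTNGCAAC for the core of the X box and GGGATTCCC for NF-kB. The letters for the X core were chosen after the class II promoters had been read, so their presence there is no finding. Capitals mark the X core and the Y box in the class II genes (CCAAT on the minus strand reads ATTGG) and only the NF-kB site in H2-K1.
H2-Aa, chr17:34287774-34288073, minus strand: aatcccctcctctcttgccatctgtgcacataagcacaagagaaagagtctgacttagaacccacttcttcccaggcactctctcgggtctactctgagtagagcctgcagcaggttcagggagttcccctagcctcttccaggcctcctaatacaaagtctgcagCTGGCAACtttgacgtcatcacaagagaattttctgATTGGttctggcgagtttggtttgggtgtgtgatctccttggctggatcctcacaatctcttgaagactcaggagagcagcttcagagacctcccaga
H2-Eb1, chr17:34305617-34305916, plus strand: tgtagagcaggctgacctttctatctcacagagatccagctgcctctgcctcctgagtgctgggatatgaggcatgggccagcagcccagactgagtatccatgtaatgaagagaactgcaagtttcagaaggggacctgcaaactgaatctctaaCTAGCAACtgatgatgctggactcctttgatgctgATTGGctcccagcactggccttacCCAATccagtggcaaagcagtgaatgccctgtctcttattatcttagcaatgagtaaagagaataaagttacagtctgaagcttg
H2-K1, chr17:34000298-34000597, minus strand: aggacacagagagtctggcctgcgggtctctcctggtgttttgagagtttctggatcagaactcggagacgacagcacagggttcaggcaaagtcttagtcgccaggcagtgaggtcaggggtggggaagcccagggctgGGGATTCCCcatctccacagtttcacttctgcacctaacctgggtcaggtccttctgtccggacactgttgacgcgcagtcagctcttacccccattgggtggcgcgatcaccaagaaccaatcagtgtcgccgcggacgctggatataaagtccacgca
With the start base as 0, the X core began at -84 in H2-Aa and at -94 in H2-Eb1, and the Y box on the minus strand at -48 and -59. The H2-Eb1 run has another CCAAT on the plus strand at -35. The NF-kB letters began at -110 in H2-K1 and also stood at -170 in the promoter of H2-D1. The X core and Y box letters were not limited to class II genes, since the X core also stood at -212 on the minus strand of the H2-D1 promoter and all 7 promoters searched held CCAAT. None of the marked motifs overlap. Of 32851 promoters of this length, 37.4% held CCAAT, 3.42% the X core, 1.32% both and 0.353% the NF-kB letters. These matches are descriptions of letters, and binding was not measured.

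B2m and H2-K1 were high in all 4 libraries and varied little. B2m had 4065 FPKM in WT HSC against 4949 in GRK6-/- HSC, and 4902 in WT CLP against 5119 in GRK6-/- CLP. It ranked 14th, 11th, 10th and 8th among the genes of the 4 libraries, and its highest value was 1.26 times its lowest. H2-K1 had 673 FPKM in WT HSC against 519 in GRK6-/- HSC, and 761 in WT CLP against 483 in GRK6-/- CLP. Both libraries labelled GRK6-/- lay below both WT libraries, with a spread of 1.58 times. FPKM is scaled to transcript length, but whether levels of different genes are comparable after the PCR amplification was not tested. In these values B2m stood 6.04, 9.54, 6.44 and 10.6 times above H2-K1 in the same order of libraries. The H2-K1 row covers 25675 bp where the annotated gene covers 4317 bp, and what else is counted in it is not known.

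H2-D1, the other classical heavy chain of this haplotype, had 732 FPKM in WT HSC against 265 in GRK6-/- HSC, and 302 in WT CLP. In GRK6-/- CLP it was listed only in a row shared by 9 genes, the others mostly of the H2-Q family, at 1603 FPKM. The row has one locus of 211470 bp in all 4 libraries (mm9 chr17:35400039-35611508), and 7 annotated H2-Q genes lie inside it. Whether the rows named for H2-D1 alone hold its reads alone is not known. Of the 100-base windows of its transcripts, 4.64% are identical in another gene and most of these in H2-Q2 (4.24%), whereas no window of the other 9 members was shared. H2-D1 values are therefore uncertain, and the value of GRK6-/- CLP was kept out of the comparisons.

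Tap1 had 51.0 FPKM in WT HSC against 120 in GRK6-/- HSC, and 88.9 in WT CLP against 59.2 in GRK6-/- CLP, a spread of 2.35 times with no order by genotype or population. Tapbp had 28.3 FPKM in WT HSC against 22.3 in GRK6-/- HSC, and 55.8 in WT CLP. In GRK6-/- CLP it shared a row with its neighbour Zbtb22 at 50.2 FPKM. The sum of the separate rows of Zbtb22 and Tapbp was 42.2, 44.3 and 62.1 FPKM in the other libraries, so the shared row lay within that range.

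**Figure D1:**
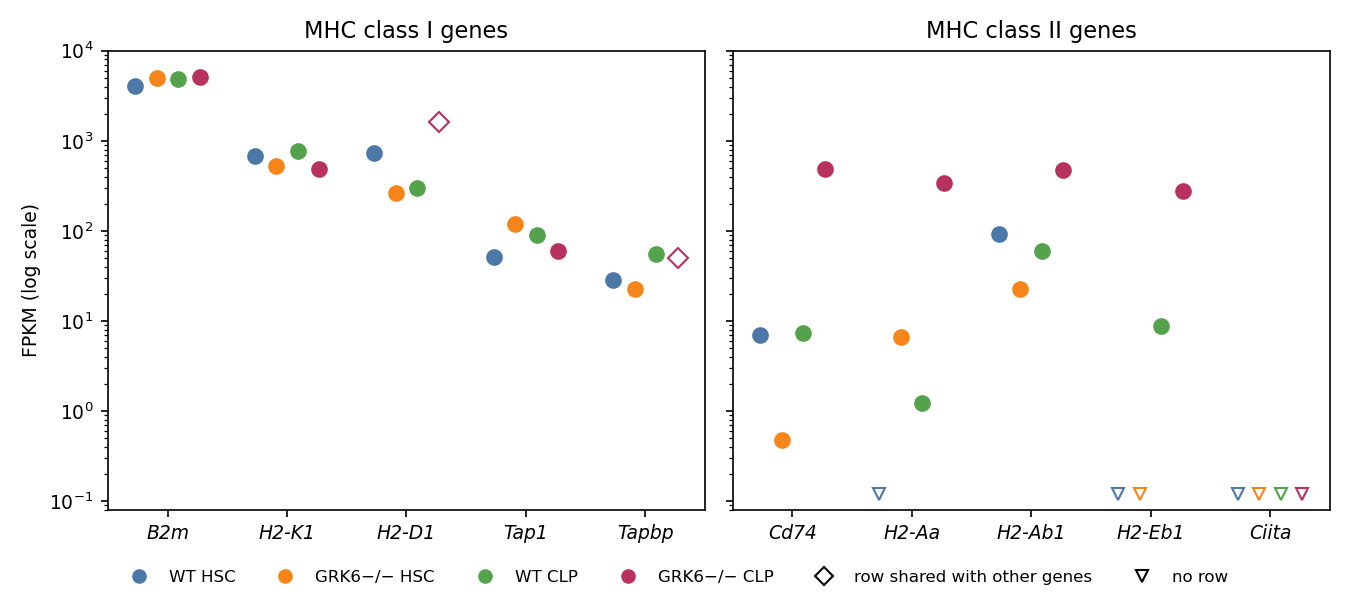
FPKM (log scale) of the 10 members in the 4 libraries, 1 library per group and named by label. Circles are rows of the gene alone, diamonds rows shared with other genes and triangles genes without a row, drawn at an arbitrary height. B2m sits between 4065 and 5119 in all libraries, whereas the 4 class II genes with values reach 275 to 483 in GRK6-/- CLP and at most 93.2 elsewhere.

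Cd74, H2-Aa and H2-Eb1 were under 10 FPKM or without a row in 3 libraries and high in GRK6-/- CLP. Cd74 (mm9 chr18:60963502-60972300, plus strand) had 6.92 FPKM in WT HSC against 0.475 in GRK6-/- HSC, and 7.26 in WT CLP against 483 in GRK6-/- CLP. These correspond to about 28.9, 2.59, 45.3 and 1900 fragments, so the value in GRK6-/- HSC lies at the limit of detection. H2-Aa had no row in WT HSC against 6.70 FPKM in GRK6-/- HSC, and 1.22 in WT CLP against 336 in GRK6-/- CLP. A level of 3 fragments would have been 0.896 FPKM for H2-Aa in WT HSC. The H2-Aa value in WT CLP rests on about 6.11 fragments, where 3 would be 0.598 FPKM. H2-Eb1 had no row in either HSC library, 8.85 FPKM in WT CLP and 275 in GRK6-/- CLP. In GRK6-/- CLP, Cd74 ranked 153rd, H2-Ab1 155th, H2-Aa 215th and H2-Eb1 278th, and the heavy chain H2-K1 stood at 154th, between the first pair.

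H2-Ab1 differed from its partners in being measured clearly in every library. It had 93.2 FPKM in WT HSC against 22.5 in GRK6-/- HSC, and 60.4 in WT CLP against 471 in GRK6-/- CLP, or about 334, 106, 324 and 1590 fragments. H2-Aa, whose product pairs with that of H2-Ab1, lay below it in every library with both rows. The ratio of H2-Ab1 to H2-Aa was 3.36 in GRK6-/- HSC, 49.7 in WT CLP but 1.4 in GRK6-/- CLP, and had no value in WT HSC. The value of 49.7 rests on about 6.11 fragments of H2-Aa. Among the class II genes with a row, the highest exceeded the lowest 13.5 times in WT HSC, 47.4 times in GRK6-/- HSC and 49.7 times in WT CLP, but 1.76 times in GRK6-/- CLP. The 4 genes were nearest to one level in GRK6-/- CLP. Their summed FPKM was 100.1 in WT HSC against 29.7 in GRK6-/- HSC, and 77.8 in WT CLP against 1565 in GRK6-/- CLP, and H2-Ab1 made up most of it in all but the last.

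Ciita had no row in any library, and no row of another name overlapped its locus. For its longest transcript of 5290 bases, 3 fragments would be 0.128 to 0.204 FPKM, but why a gene lacks a row is not given in the sources used here. Genes at 100 FPKM or more in the other libraries rarely lacked one, with 0, 4, 1 and 0 such genes of 527, 527, 529 and 538 in the same order of libraries. How often genes of lower level lacked a row was not counted, so nothing is read from this for Ciita.

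The genotype comparison in HSC asked how loss of GRK6 alters the stem cell transcriptome. In GRK6-/- HSC the class II genes H2-Ab1 and Cd74 and the heavy chain H2-D1 were lower, Tap1 was higher, and B2m, H2-K1 and Tapbp stayed within 2-fold of WT HSC. Differences were taken as log2 ratios of FPKM + 1, which understate the change of low genes, with 2-fold as the limit. H2-Ab1 was 4.14-fold lower in GRK6-/- HSC (log2 ratio -2.00; the counting interval of the ratio to WT was 0.193 to 0.302). H2-D1 was 2.77-fold lower (-1.47) and Tap1 2.35-fold higher (1.22; 2.14 to 2.58). For Cd74 the FPKM was 14.6 times lower (-2.43), and the ratio to WT of 0.0686 had a counting interval of 0.0154 to 0.255 and rests on about 3 fragments. The log2 ratio of H2-Aa was 2.94, and no fold is given because WT HSC had no row.

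Of the 8 members compared in HSC, 2 were past 2-fold upwards and 3 downwards, and the median log2 ratio was -0.35. Over all 11682 genes 37.4% passed 2-fold, 19.4% upwards and 18.1% downwards, and the median was 0.05. A large share of genes thus passes the limit between single libraries.

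In CLP the class II genes differed between the genotypes by far more than the class I genes. H2-Aa was 276-fold higher in GRK6-/- CLP than in WT CLP (log2 ratio 7.25; counting interval 129 to 768). Its WT CLP value rests on about 6.11 fragments. Cd74 was 66.5-fold higher (5.87; 49.9 to 92.2) and H2-Eb1 31.1-fold (4.81; 23.2 to 43.0). H2-Ab1, already present in WT CLP, was 7.78-fold higher (2.94; 6.91 to 8.81). All but H2-Ab1 lay above 3.28, the 95th percentile of the log2 ratios of all genes in this comparison. B2m, H2-K1 and Tap1 had log2 ratios of 0.06, -0.66 and -0.58 and did not reach 2-fold.

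Thus 4 of the 7 members compared in CLP were past 2-fold upwards and 0 downwards, namely 4 of 4 class II genes and 0 of 3 class I genes. Over all 11257 genes 50.0% passed 2-fold in this comparison, 26.6% upwards and 23.4% downwards, with a median of 0.05, against a median of 5.34 for the class II genes and -0.58 for the class I genes. The count alone is read against that background, and the sizes rest on a single library of 13 to 15 cells. With the shared rows taken in place of the missing ones, H2-D1 would be 5.31-fold higher (log2 ratio 2.41) in GRK6-/- CLP and Tapbp nearly level (-0.15). These ratios set rows that also name other genes against WT CLP rows named for 1 gene. Zbtb22 and Tapbp together had 62.1 FPKM in WT CLP against 50.2 in the shared row.

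**Figure D2:**
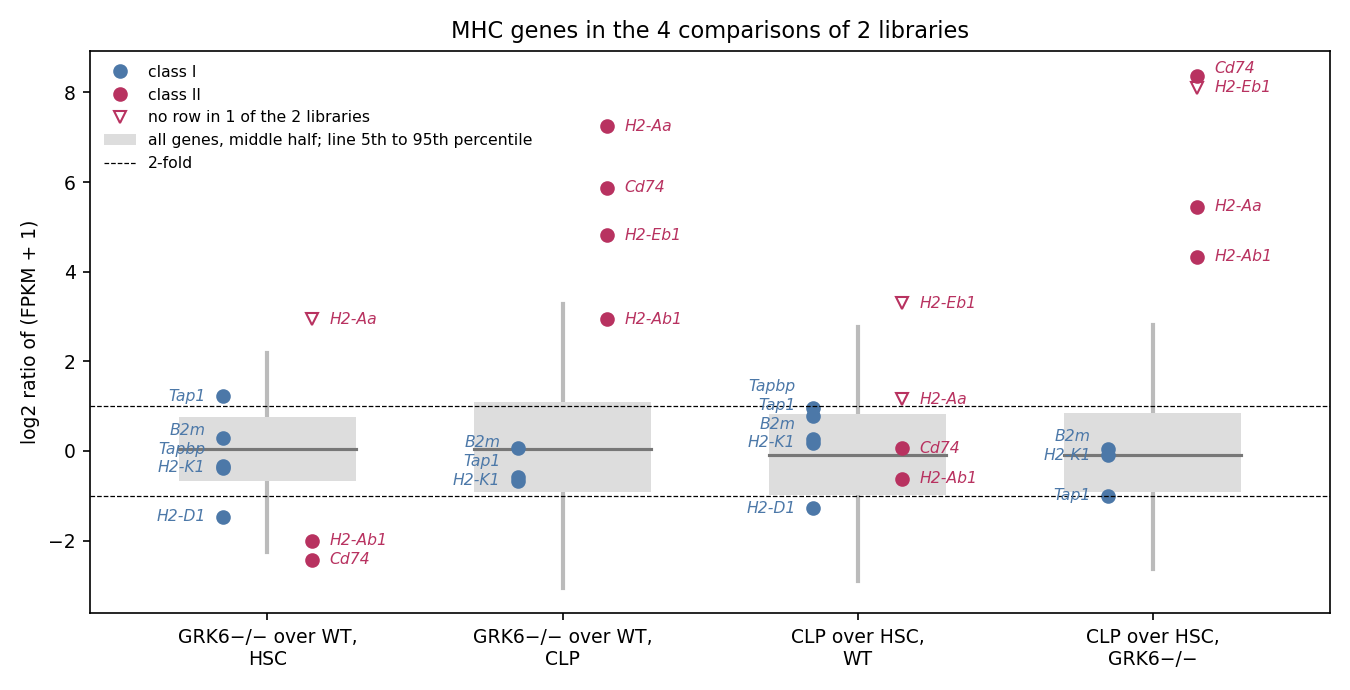
Log2 ratios of FPKM + 1 of the members in the 4 comparisons, each of 1 library against 1 (no replicates). Grey boxes run from the 25th to the 75th percentile of all genes with the median as a line, grey lines run from the 5th to the 95th percentile, and open triangles mark genes without a row in 1 of the libraries, whose ratio depends on the added 1. The 4 class II genes lie between 2.94 and 7.25 for the genotype in CLP, and the 3 class I genes between -0.66 and 0.06.

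The populations were compared within each genotype. In WT, 4 of the 5 class I genes stayed within 2-fold between HSC and CLP. B2m had a log2 ratio of 0.27, H2-K1 of 0.18, Tap1 of 0.79 and Tapbp of 0.96, and H2-D1 alone fell past 2-fold (-1.28, 2.43-fold lower in CLP). Cd74 was level (0.06; counting interval of the ratio 0.635 to 1.71) and H2-Ab1 slightly lower in CLP (-0.62). H2-Eb1 and H2-Aa appeared in WT CLP without a row in WT HSC, with log2 ratios of 3.30 and 1.15 that depend on the added 1 (6.48 and 3.72 with 0.1 added). That made 2 members upwards and 1 downwards of 9 compared, where 46.5% of 11282 genes passed 2-fold, 21.8% upwards and 24.8% downwards.

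Between the libraries labelled GRK6-/-, class II genes separated the populations. Cd74 had a log2 ratio of CLP over HSC of 8.36, H2-Eb1 of 8.11, H2-Aa of 5.45 and H2-Ab1 of 4.33. H2-Aa was 50.2-fold (counting interval 35.2 to 76.3) and H2-Ab1 20.9-fold higher in CLP (17.1 to 25.6). Tap1 lay at the limit in the other direction (2.02-fold lower in CLP), while B2m (0.05) and H2-K1 (-0.10) were level. H2-D1 and Tapbp were left out, as GRK6-/- CLP named them only in shared rows. With the shared rows in their place, the log2 ratios would be 2.60 for H2-D1 and 1.13 for Tapbp. Those rows also name other genes, so whether class I as a whole was level is not known. Thus 4 members were past 2-fold upwards and 1 downwards of 7 compared, and of 11754 genes 45.6% passed, 22.2% upwards and 23.4% downwards. This comparison and the genotype comparison in CLP share the GRK6-/- CLP library, so their class II values are not independent of each other.

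A model over all 4 libraries with genotype and population as terms (limma with a mean-variance trend, Benjamini-Hochberg adjustment, 1 residual degree of freedom) gave the only test across genes. It asks for an effect common to both populations or both genotypes. For genotype 57 of 11230 genes were called at an adjusted p under 0.05 (0.508%), among them H2-Aa with a log2 difference of 5.10 ± 1.20 (SE, limma adjusted p = 0.00902). For population 80 genes were called (0.712%), among them H2-Eb1, higher in CLP by 5.70 ± 1.26 (limma adjusted p = 0.00208), and Cd74, by 4.21 ± 1.02 (limma adjusted p = 0.00821). H2-Ab1 was called for neither (limma adjusted p = 0.998 and 0.186), nor were B2m, H2-K1 and Tap1. All 3 member calls were lost when the variance trend was left out (limma adjusted p = 0.842 for H2-Aa, 0.523 for H2-Eb1 and 0.883 for Cd74) and when genes under 1 FPKM were kept (0.934, 0.833 and 0.833). The spread in this model came wholly from genes of like level, not from replicates of a group. A disagreement between the genotypes within a gene therefore did not widen its SE. For Cd74 the log2 ratio of CLP over HSC was 0.06 in WT and 8.36 in GRK6-/-. Its call thus averages unlike values and shows no difference common to both genotypes. For H2-Aa the genotype log2 ratios were 2.94 in HSC and 7.25 in CLP. For H2-Eb1 the log2 ratios of CLP over HSC were 3.30 in WT and 8.11 in GRK6-/-. All of these but 7.25 depend on the added 1, because an HSC library had no row.

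The machinery that supplies class I peptides was measured for all 12 listed genes. In HSC none of the 12 passed 2-fold between the genotypes, with a median log2 ratio of 0.10 and a range from -0.70 to 0.87, where 37.4% of all genes did. In CLP 3 were past 2-fold upwards and 3 downwards in GRK6-/- CLP, with a median of -0.19, a share no different from the 50.0% of all genes. Nlrc5, the transactivator of class I genes, had 8.31 FPKM in WT HSC against 4.74 in GRK6-/- HSC, and 77.3 in WT CLP against 10.4 in GRK6-/- CLP. The proteasome activator subunit Psme2 had 39.6, 30.0, 158 and 32.0 FPKM in the same order, so that both genes stood out in WT CLP. Psmb8, an immunoproteasome subunit, had 509, 415, 478 and 231 FPKM (log2 ratio -1.04 for genotype in CLP). The 3 upwards were Tapbpl, a tapasin relative (1.37 FPKM in WT CLP and 10.2 in GRK6-/- CLP), Pdia3, a thiol oxidoreductase of the loading complex (5.26 and 16.6), and Tap2, the partner of Tap1 (21.2 and 44.0). Tap1 and Tap2 thus had log2 ratios of opposite sign in CLP, -0.58 and 1.02. In CLP against HSC, Erap1, which trims peptides in the endoplasmic reticulum, was 5.47-fold higher in WT and 4.52-fold higher in GRK6-/-.

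Nonclassical class I and class I-like genes were harder to read. Of 17 listed, 7 could be compared in HSC (1 up, 2 down) and 6 in CLP (1 up, 3 down), as H2-Q and H2-T genes were mostly named in shared rows or had none. Against 37.4% and 50.0% of all genes, nothing is read from counts this small. H2-M3, which presents formylated peptides, had 37.0 FPKM in WT HSC against 55.2 in GRK6-/- HSC, and 83.0 in WT CLP against 5.05 in GRK6-/- CLP, 16.4-fold lower in the last than in WT CLP. H2-T24 had 13.8 FPKM in WT CLP and 3.06 in GRK6-/- CLP. Cd1d1, which presents lipids, had 31.7, 27.8, 104 and 58.5 FPKM and was past 2-fold in CLP against HSC in both genotypes. H2-T10 had a row of its own only in GRK6-/- HSC (31.6 FPKM) and shared a row with other H2-T genes in both CLP libraries. Its region was named H2-T9 in WT HSC, at 89.5 FPKM, so no direction is read from its log2 ratio of 5.03 in HSC, which is the 1 counted up there.

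Genes that load and turn over class II went in both directions. Of 13 listed, 11 could be compared in each population, with 3 up and 3 down in GRK6-/- HSC and 5 up and 3 down in GRK6-/- CLP. The medians were -0.01 and -0.05, and of all genes 19.4% were up and 18.1% down in HSC and 26.6% up and 23.4% down in CLP. H2-DMa, a chain of the peptide exchange factor, was level between genotypes with 125 FPKM in both HSC libraries, 190 in WT CLP and 183 in GRK6-/- CLP. Its partner H2-DMb1 had 13.7, 22.3, 70.7 and 39.4 FPKM. H2-Oa, a chain of the factor that restrains H2-DM, had 30.2 FPKM in WT HSC against 4.28 in GRK6-/- HSC, and 14.4 in WT CLP against 43.1 in GRK6-/- CLP. Its partner H2-Ob had 16.4, 3.37, 52.3 and 35.8 FPKM, so both chains were lowest in GRK6-/- HSC. Ctss, the cathepsin that cleaves the invariant chain, had 22.9, 44.9, 36.8 and 188 FPKM, and Ctsl, another cathepsin, had 6.24, 2.21, 33.5 and 79.4 FPKM. Both were highest in GRK6-/- CLP. Ifi30, a lysosomal thiol reductase, had 9.41 FPKM in WT HSC against 32.5 in GRK6-/- HSC, and 13.1 in GRK6-/- CLP and no row in WT CLP. March8, a ubiquitin ligase of surface proteins, had 0.596 FPKM in WT CLP and 12.0 in GRK6-/- CLP. H2-Ea had no row in any library.

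Transcription factors of MHC genes gave 4 up and 1 down of 14 in GRK6-/- HSC and 3 up and 6 down of 14 in GRK6-/- CLP, with median log2 ratios of 0.68 and -0.23, beside 37.4% and 50.0% of all genes past 2-fold. Irf8, a factor of dendritic, monocyte and B lineage cells, had 1.12 FPKM in WT HSC against 41.2 in GRK6-/- HSC, and 152 in WT CLP against 190 in GRK6-/- CLP. Its log2 ratio between genotypes was 4.32 in HSC and 0.32 in CLP, where the class II genes differed most. Spi1 (PU.1) had 133, 202, 177 and 72.8 FPKM and was lowest in GRK6-/- CLP. Irf2 had 7.77, 20.6, 77.3 and 23.2 FPKM, up in GRK6-/- HSC and down in GRK6-/- CLP. Of the X and Y box factors, Rfxap was up in GRK6-/- CLP (4.68 to 12.9 FPKM), while Creb1 (13.5 to 4.30) and Nfyc (55.3 to 24.2) were down. Nfyc was also down in GRK6-/- HSC (33.8 to 8.97 FPKM). Nfkb1 was 2.59-fold lower in GRK6-/- CLP, with 154 FPKM in WT CLP and 59.2 in GRK6-/- CLP, and Irf1 lay between 52.2 and 68.3 in all libraries.

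**Figure D3:**
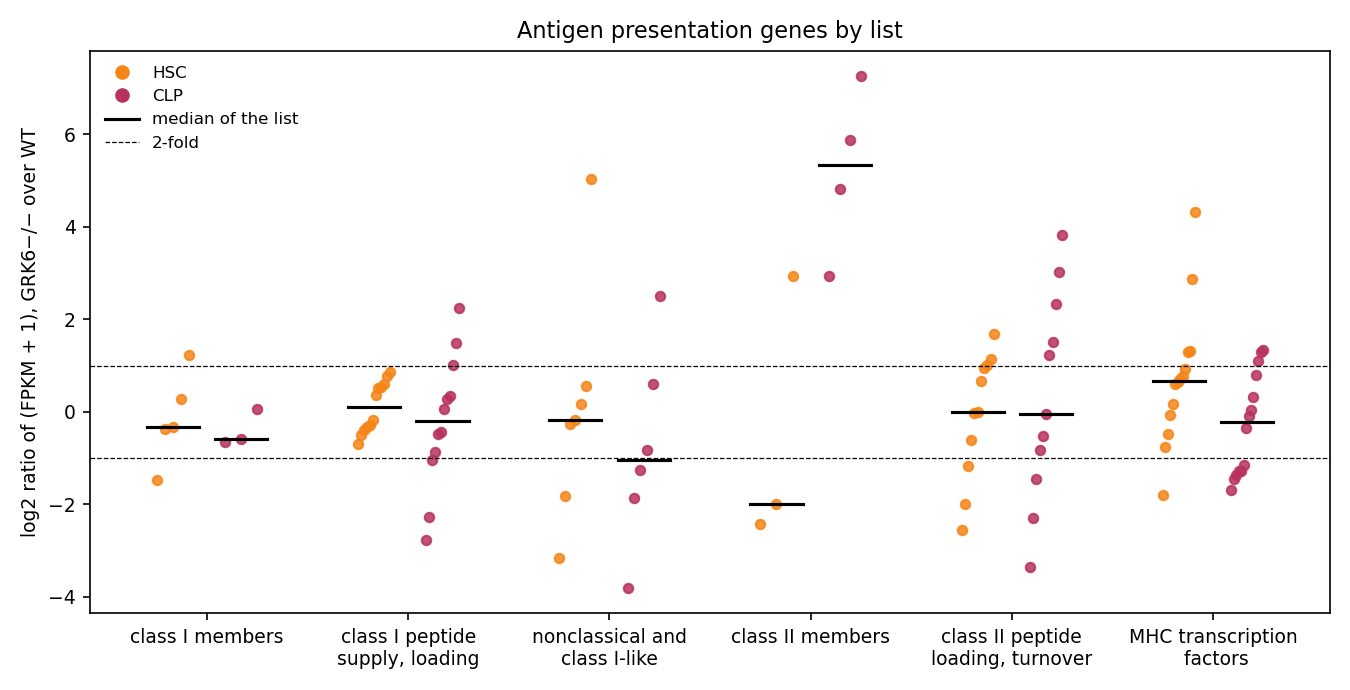
Log2 ratios of FPKM + 1, GRK6-/- over WT, of each gene of 6 antigen presentation lists in HSC and CLP, with 1 library a group. Points are genes, black bars the median of the list and dashed lines 2-fold, and a gene without a row in 1 library is plotted with 0 FPKM there. The class II members in CLP have a median of 5.34, while the other lists spread to both sides of 0 or lie near it.

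Markers of cells that carry class II, and of other cells, were read beside these values. The summed FPKM of 8 dendritic cell markers was 9.17 in WT HSC against 16.4 in GRK6-/- HSC, and 21.5 in WT CLP against 475 in GRK6-/- CLP, where Siglech, a marker of plasmacytoid dendritic cells, had 278 and Bst2 had 191. Clec9a had 4.38 FPKM and Itgax 1.15 there, and Batf3, Cd209a, Zbtb46 and Xcr1 had no row, so 4 of the 8 were listed. The 8 B lineage markers summed to 41.9, 35.5, 258 and 1057 FPKM, and Vpreb1 and Igll1 of the surrogate light chain had 246 and 226 in GRK6-/- CLP and 16.4 and 2.20 in WT CLP. In both CLP libraries 6 of the 8 markers were listed, and Ms4a1 and Pax5 were listed in no library. Monocyte and macrophage markers summed to 130, 162, 292 and 139 FPKM, with 3 of 8 listed in GRK6-/- CLP and Csf1r, Cd14 and Ccr2 without a row there. Erythroid markers summed to 13.7, 134, 17.8 and 17517 FPKM. Dendritic, B lineage and erythroid sums thus were highest in the library where class II was highest. T cell and HSC marker sums were also highest there, at 39.3 and 452.4 FPKM against at most 31.5 and 419.1 elsewhere. Of the T cell markers, Cd4 (9.63 FPKM) had a row only in GRK6-/- CLP, and Lck was level between the CLP libraries (29.2 and 29.3). Neutrophil lineage markers summed to 15801, 9658, 7872 and 6826 FPKM and were lowest in GRK6-/- CLP. The part of any of these cells in the class II values was not tested.

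**Figure D4:**
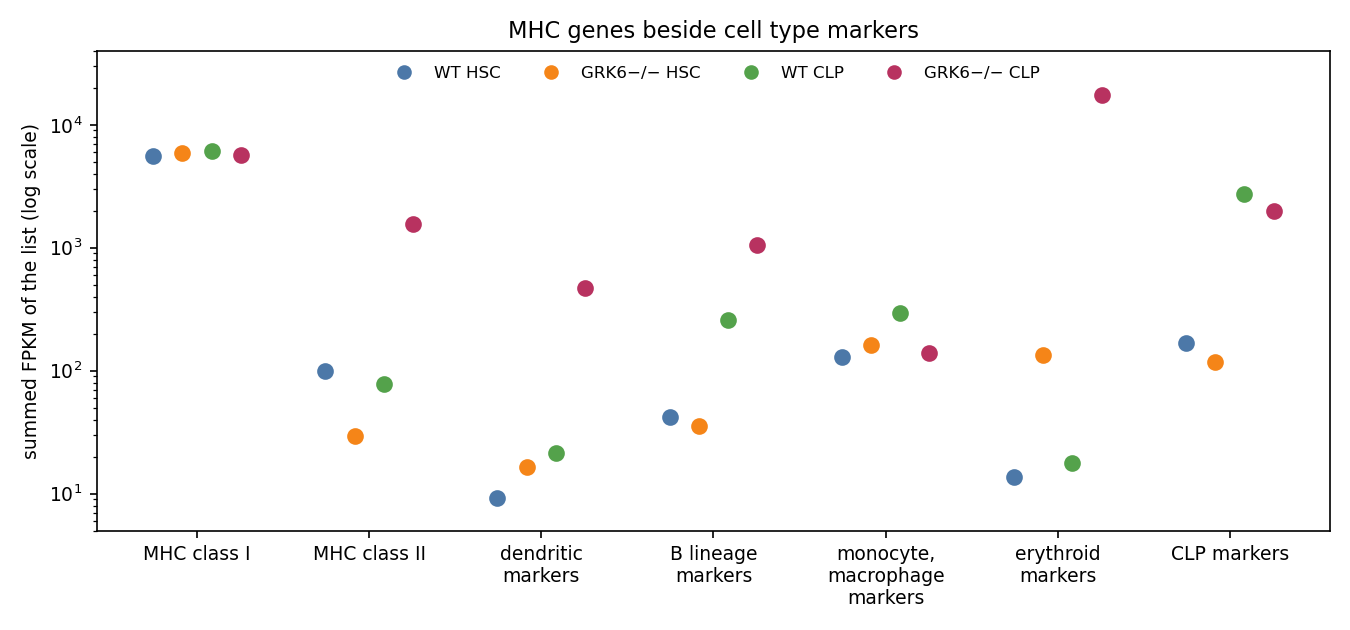
Summed FPKM (log scale) of the class I and class II members and of 5 marker lists in the 4 libraries, named by label, without rows shared by several genes. Class II, dendritic, B lineage and erythroid sums are highest in GRK6-/- CLP (1565, 475, 1057 and 17517), while the class I sum lies between 5550 and 6110 in all libraries, without H2-D1 and Tapbp in GRK6-/- CLP.

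The genes most like a class I and a class II member were looked up by the distance of their centred log2(FPKM + 1) over the 4 libraries, among 6631 genes with a row in all 4 and at least 10 FPKM in 1. Nearest to H2-K1 were Arpc5l (distance 0.07), Cdk2ap2 (0.08), Coro1a (0.11), Tm6sf1 (0.11) and Wipf1 (0.12), and 1894 genes lay within 1, so this flat pattern was common. Nearest to Cd74 were Drosha (2.07), Fbxw10 (2.30), Siglech (2.36), Pim2 (2.40) and Cd7 (2.45), and 0 genes lay within 1. Drosha had 3.52 FPKM in WT HSC against 2.64 in GRK6-/- HSC, and 10.4 in WT CLP against 192 in GRK6-/- CLP, and Cd7 had 8.01, 0.288, 1.51 and 64.8. The other class II members could not be ranked with Cd74 where they lacked a row, and over 4 libraries such likeness says nothing of shared control.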

How the data were processed

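RNA-seq of 4 libraries was analysed, 1 for each population and genotype. The authors deposited FPKM values per gene and library, made with the Tuxedo suite on mm9 (TopHat 1.4.0 per the submitters' processing notes), without counts. Strandedness and the rule by which rows were left out or shared are not given in the sources used here. FPKM was summed where a symbol had several rows, absent rows counted as 0, and genes named in a shared row of either library were left out of that comparison (325 genes over all libraries). Log2 ratios of FPKM + 1 were called at 2-fold, with no p-value, as 1 library per group allows no test. Counting intervals (95%, exact) used fragments estimated from steps in the low FPKM. limma 3.58.1 (R 4.3.3) was fitted on log2(FPKM + 1) of genes with at least 1 FPKM in 1 library. The fold rule, the depth estimate and the limma fit were tested on simulated data. Tables and intervals came from pandas 2.3.3, scipy 1.17.1 and numpy 2.4.6 and plots from matplotlib 3.10.9, under Python 3.11.15. Genes are named if they are members, or if they are on a list, past 2-fold in a comparison and at 10 FPKM or more in 1 of its libraries. H2-DMa, Irf1, H2-Ea and single markers were chosen as examples after their values were seen. The members and lists were chosen with earlier results of these data known. Alternatives were the pseudocount, scaling, row choice, threshold, filter, the limma trend and, added after the values were seen, the shared rows. Values of some listed genes are not reported here.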

Additional observations from a re-analysis of the deposited data

Results flagged for a closer look

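The genotype ratio was past 2-fold in opposite directions in HSC and CLP for 5 of the 32 members and named antigen presentation genes with a ratio in both populations (15.6%), where 10.8% of 10398 genes were. Cd74 had a log2 ratio of -2.43 in HSC and 5.87 in CLP. H2-Ab1 had -2.00 and 2.94, H2-Oa -2.56 and 1.51, Ctsl -1.17 and 1.22, and Irf2 1.30 and -1.69. Of 27 cell type markers, 2 did the same, the monocyte gene Csf1r (2.73 and -4.14) and the neutrophil granule gene Camp (-3.37 and 6.11). The named genes and markers were picked for being past 2-fold in a comparison, so their shares cannot be set against that of all genes. With 1 library per group these differences were not tested.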

How the results depend on the processing

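Requiring a 4-fold change left 3 of 8 members in place of 5 for the genotype in HSC and 1 of 9 in place of 3 for CLP against HSC in WT, where 12.5% and 20.5% of all genes passed. No other alternative moved a count of members past 1.5 times. In limma, keeping genes under 1 FPKM left 1 gene in place of 57 for genotype and 2 in place of 80 for population, and leaving out the variance trend left 0 (500 genes at an unadjusted p under 0.05, 651 in the model as reported) and 1. A pseudocount of 0.1 gave 69 and 88, and raised the log2 ratios of genes without a row in 1 library, H2-Aa from 2.94 to 6.09 for the genotype in HSC and H2-Eb1 from 8.11 to 11.43 for CLP against HSC in GRK6-/-. Dividing by the summed FPKM of a library shifted all log2 ratios by up to 0.207 in the median and took Tap1 under 2-fold in GRK6-/- CLP against HSC (-0.80). Across 169 recomputed member ratios, 0 called ratios turned sign, which was fixed beforehand. The pseudocount, filter and row choice cannot turn the sign of these members, and the scaling shifts were small beside the 2-fold limit. No paired analysis was possible because each group had a single library with no replicate number to pair, and the limma model has population as a term beside genotype. Leaving out a library was not possible in a comparison of 1 against 1, so the class II values of GRK6-/- CLP stand on that library alone. Depth limits Cd74 in GRK6-/- HSC, H2-Aa in WT CLP (about 6.11 fragments) and every gene without a row.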
